A study of Arabidopsis thaliana with 12 samples.

Results

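The 10 genes described here encode superoxide dismutases, catalases and ascorbate peroxidases of Arabidopsis thaliana, chosen by name and locus and not by their values, from 24716 genes that a probe of the array names. They are the copper/zinc superoxide dismutases CSD1 (AT1G08830), CSD2 (AT2G28190) and CSD3 (AT5G18100), the iron superoxide dismutase FSD1 (AT4G25100), the manganese superoxide dismutase MSD1 (AT3G10920), the catalases CAT1 (AT1G20630), CAT2 (AT4G35090) and CAT3 (AT1G20620), and the ascorbate peroxidases APX1 (AT1G07890) and APX2 (AT3G09640). Of these, 9 had a probe above the filter on dim signals in every group. No probe is named for APX2, which is not analysed here.

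RNA from whole seedlings was hybridised to 12 one-colour Agilent arrays, with 4 groups of 3 arrays. The wild type was Col-0, and the transformant, here named SvGRP, is Arabidopsis with an added gene from the grass Sporobolus virginicus, whose product is a glycine-rich protein that binds RNA. Seedlings of each genotype germinated for 5 days, were moved to medium with 0 or 150 mM NaCl, and were harvested after 24 h, at an age given as 6 days. The labels used here name neither the promoter that drives the transgene nor the number of transformed lines, and do not say whether replicates were grown separately or held pooled plants.

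Superoxide dismutases convert superoxide to oxygen and hydrogen peroxide, and they differ in their metal and in the compartment they serve. Catalases in peroxisomes break down hydrogen peroxide directly, whereas ascorbate peroxidases reduce it to water with ascorbate, which dehydroascorbate and monodehydroascorbate reductases and glutathione reductase then regenerate. In Arabidopsis the transcripts of CSD1, CSD2 and CCS, the chaperone that loads copper into the copper/zinc enzymes, are targets of the microRNA miR398, and FSD1 and the copper/zinc enzymes are known to be used in exchange for each other as copper supply changes.

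A level below is log2 of the processed signal minus log2 of the array's 75th percentile, so that 0 is that percentile, and levels of different genes are not set against each other because each comes from its own probe. A gene is called when limma's adjusted p is under 0.05, and differences are given on the log2 scale with their standard error. A slide carries 4 arrays, and 3 slides were used. All wild-type arrays at 0 mM and replicate 1 of the wild type at 150 mM shared slide 1. Slide 2 carried replicates 2 and 3 of the wild type at 150 mM with replicates 1 and 2 of SvGRP at 0 mM, and slide 3 carried the rest. At a given NaCl level the genotypes never shared a slide. The median signal of an array ran from 676 to 1013, and genes had a median SD of 0.06 to 0.13 in the 4 groups, where the number of arrays limits the precision.

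Markers of both shoot and root were measured in these whole seedlings, 5 of 5 and 4 of 5. The summed signal of the shoot markers, as a multiple of the array's 75th percentile, was 326 to 368 in the wild type at 0 mM, 234 to 241 in the wild type at 150 mM, 288 to 303 in SvGRP at 0 mM and 228 to 249 in SvGRP at 150 mM. That of the root markers was 1.03 to 1.75, 1.83 to 2.15, 1.13 to 1.92 and 0.471 to 0.846 in the same order. That of 3 of 4 seed storage markers was 0.0113 to 0.0281, 0.0263 to 0.0340, 0.0373 to 0.0463 and 0.0744 to 0.0981. The shoot sum is carried by CAB1 and RBCS1A, which lie near the brightest signals of each array, so little can be read from it, and RBCS1A overlapped between NaCl levels in SvGRP. RCA, the activase of the carbon-fixing enzyme, was at 70.3 to 84.2 at 0 mM and 39.7 to 47.9 at 150 mM over both genotypes, and the leaf genes FIL and SPCH likewise did not overlap between levels. The root sum was lowest in SvGRP at 150 mM, as were COBL9, EXPA7 and MYB36 on every array, while PRP3 overlapped the groups at 0 mM. The seed storage sum was highest there through CRA1 and OLEO1, whereas CRU3, at 0.00379 to 0.00445, was below its 0.00447 to 0.0105 in SvGRP at 0 mM and overlapped both wild-type groups. Fewer cells of a type and less RNA per cell cannot be told apart in these bulk samples, and the part of tissue make-up in the results below was not tested.

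**Figure D1:**
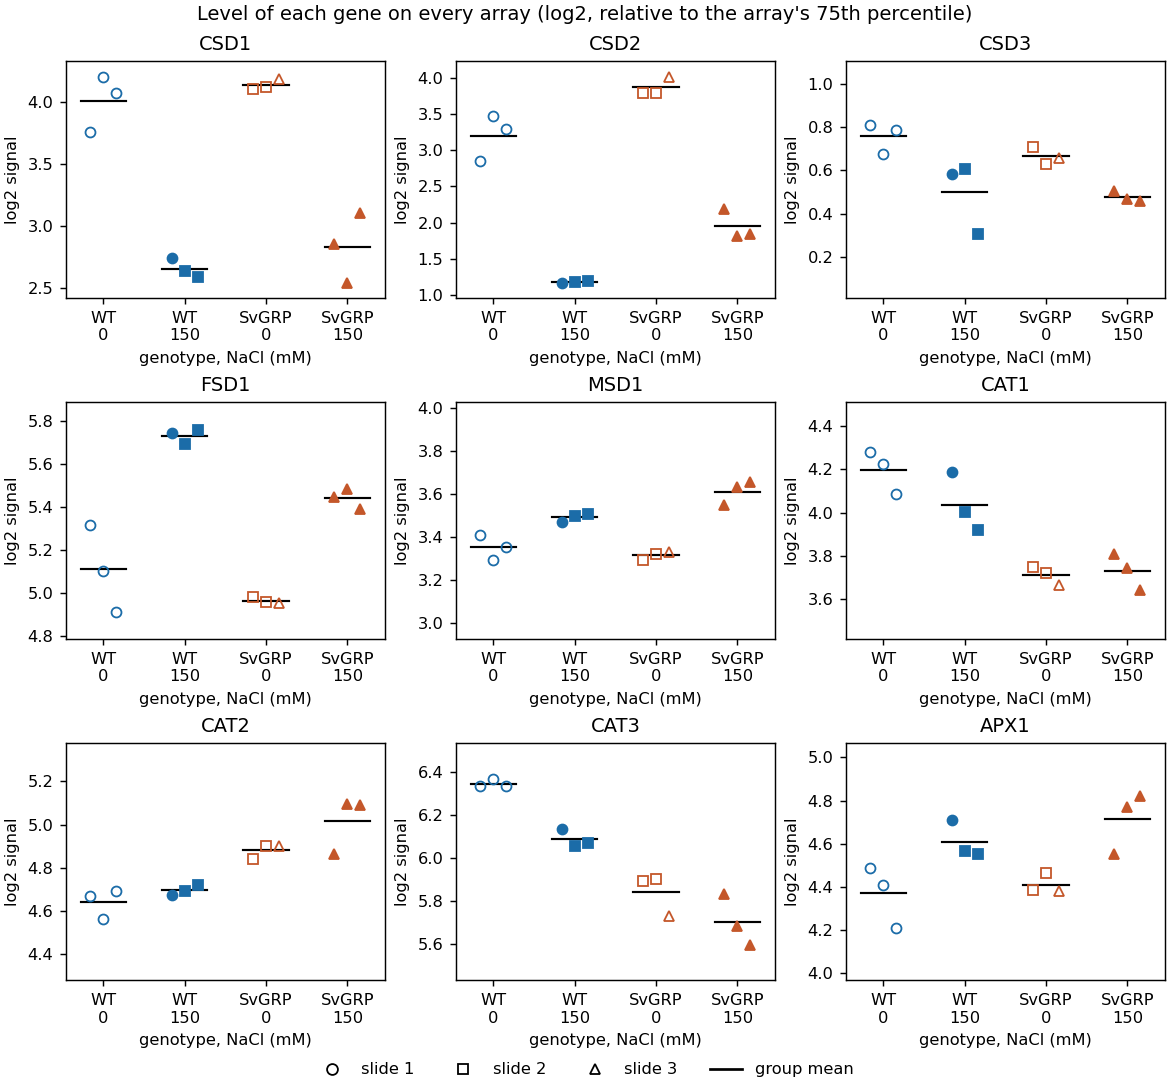
Level of each of the 9 measured genes on every array, as log2 signal relative to the array's 75th percentile, by genotype and NaCl level (mM). Points are arrays, their shape gives the slide and bars are group means. CSD1 and CSD2 are lower on all 6 salt-treated arrays than on all 6 arrays at 0 mM. On the probes shown, CAT1 and CAT3 are lower in SvGRP than in the wild type at either NaCl level. A further CAT1 probe, not shown, was higher in SvGRP at both.

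The comparison of 150 mM with 0 mM NaCl asked how each genotype's transcripts changed under salt. In the wild type, 7 of the 9 measured genes were called, 3 higher and 4 lower, where 63.2% of all genes tested were called (33.1% higher and 30.2% lower). In SvGRP, 5 were called, 3 higher and 2 lower, where 68.8% of all genes were called (31.0% higher and 37.8% lower). With most of all genes called, these counts say little about the family. By size CSD1 and CSD2 stood apart from the other members, since only these were called with a difference of 2-fold or more. Both fell so in each genotype, where 6.2% of all genes did in the wild type and 10.9% in SvGRP. When slide was added to the fit, 3 members were still called in the wild type and 4 in SvGRP, beside 45.7% and 54.1% of all genes. The median difference of the 9 genes was -0.16 in the wild type and 0.02 in SvGRP, beside 0.04 and -0.07 over all genes.

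CSD2, the copper/zinc enzyme of chloroplasts, gave the largest difference among the members. Its level was 2.84, 3.47 and 3.29 in the wild type at 0 mM and 1.17, 1.18 and 1.19 at 150 mM. In SvGRP it was 3.79, 3.79 and 4.02 at 0 mM and 2.19, 1.82 and 1.85 at 150 mM. Every salt-treated array lay below every array at 0 mM, also across genotypes. CSD2 fell by 2.02 ± 0.15 in the wild type, which is 4.06-fold lower (adjusted p = 5.1e-06), and by 1.91 ± 0.15 in SvGRP, which is 3.77-fold lower (adjusted p = 3.6e-06). Both calls held with slide in the fit, at -2.03 and -2.06. A further CSD2 probe differed by -2.18 and -2.23.

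CSD1, the cytosolic copper/zinc enzyme, moved the same way. Its level was 3.76, 4.21 and 4.07 in the wild type at 0 mM and 2.74, 2.63 and 2.59 at 150 mM. In SvGRP it was 4.10, 4.12 and 4.19 at 0 mM and 2.85, 2.54 and 3.10 at 150 mM. All 6 salt-treated arrays were again below all 6 others. CSD1 fell by 1.36 ± 0.14 in the wild type, or 2.57-fold (adjusted p = 3.0e-05), and by 1.30 ± 0.14 in SvGRP, or 2.47-fold (adjusted p = 2.5e-05). With slide in the fit it differed by -1.27 and -1.35, both called, and its other probe differed by -1.36 and -1.43.

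CSD3, the peroxisomal copper/zinc enzyme, has a single probe and differed far less. Its level was 0.81, 0.68 and 0.79 in the wild type at 0 mM and 0.59, 0.60 and 0.30 at 150 mM, without overlap. In SvGRP it was 0.71, 0.63 and 0.66 at 0 mM and 0.51, 0.47 and 0.46 at 150 mM, also without overlap. The wild type fell by 0.26 ± 0.08 (adjusted p = 0.015), and the SvGRP difference of -0.19 ± 0.08 was not called (adjusted p = 0.053), though it was with only those groups fitted (adjusted p = 0.018), with a strict filter on dim probes (adjusted p = 0.049), with a trended robust variance (adjusted p = 0.040), with slide as a random block (adjusted p = 0.039) and without replicate 2 or 3 of the wild type at 150 mM (adjusted p = 0.049 and 0.0071). The wild-type call was lost when slide was fitted (-0.17, adjusted p = 0.25) and with only those groups fitted (adjusted p = 0.063), and the difference turned to 0.17 under scaling to E1A spike-in probes (adjusted p = 0.26).

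FSD1, an iron enzyme of chloroplasts, moved opposite to CSD1 and CSD2. Its level was 5.32, 5.10 and 4.91 in the wild type at 0 mM and 5.74, 5.69 and 5.76 at 150 mM. In SvGRP it was 4.98, 4.96 and 4.96 at 0 mM and 5.45, 5.49 and 5.39 at 150 mM. Every salt-treated array was above every array at 0 mM. FSD1 rose by 0.62 ± 0.09 in the wild type, or 1.54-fold (adjusted p = 1.6e-04), and by 0.47 ± 0.09 in SvGRP, or 1.39-fold (adjusted p = 6.8e-04). Both calls held with slide in the fit, at 0.63 and 0.48, and its other probe differed by 0.93 and 0.81.

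MSD1, the mitochondrial manganese enzyme, rose by little. Its level was 3.41, 3.30 and 3.35 in the wild type at 0 mM and 3.47, 3.50 and 3.51 at 150 mM. In SvGRP it was 3.30, 3.32 and 3.33 at 0 mM and 3.55, 3.63 and 3.66 at 150 mM. The groups did not overlap in either genotype, and the gap was wider in SvGRP. MSD1 rose by 0.30 ± 0.05 in SvGRP (adjusted p = 3.2e-04), a call that held with slide in the fit (0.28). The wild-type rise of 0.14 ± 0.05 (adjusted p = 0.026) was not called with slide in the fit (0.11, adjusted p = 0.25) or scaled to the array's median (0.08, adjusted p = 0.25), whereas quantile normalization gave 0.33. It was also not called without replicate 2 or 3 of either wild-type group, where adjusted p ran from 0.063 to 0.094.

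**Figure D2:**
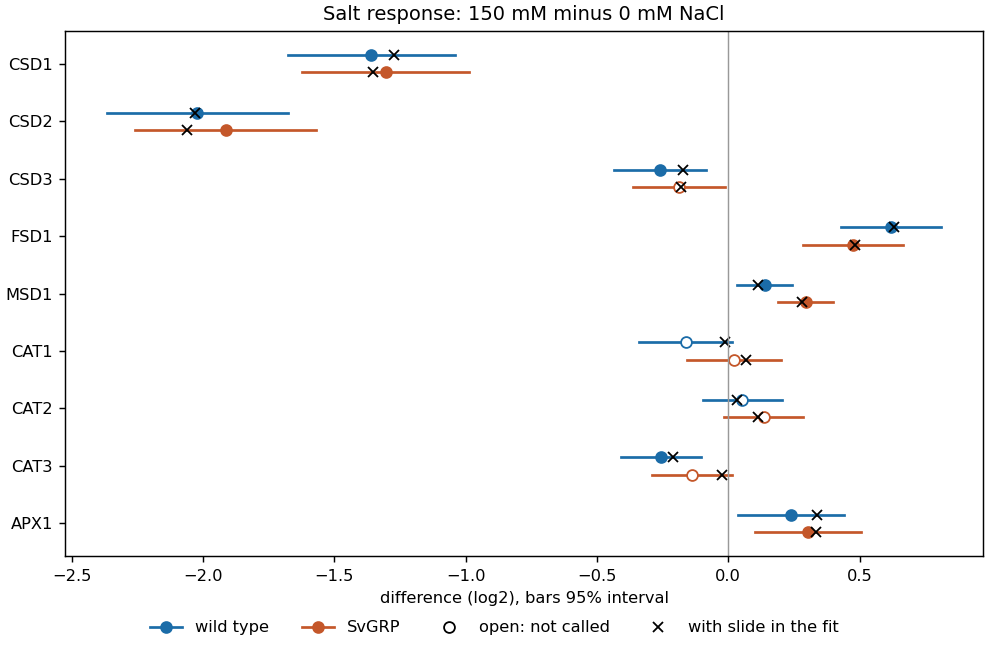
Salt response of each measured gene, 150 mM minus 0 mM NaCl on the log2 scale, in the wild type and in SvGRP; points are limma's differences, bars 95% intervals, open points are not called and crosses are values with slide in the fit. CSD2 and CSD1 lie farthest below 0 in both genotypes, FSD1 lies farthest above it, and the intervals of CAT1 and CAT2 include 0.

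The 3 catalases differed little with salt. CAT2, the main peroxisomal catalase of leaves, had levels of 4.67, 4.56 and 4.69 in the wild type at 0 mM and 4.67, 4.69 and 4.72 at 150 mM, and 4.84, 4.90 and 4.90 in SvGRP at 0 mM and 4.86, 5.09 and 5.09 at 150 mM. The NaCl groups overlapped in both genotypes. The differences of 0.05 ± 0.07 (95% interval -0.10 to 0.20) and 0.13 ± 0.07 (-0.02 to 0.28) were not called, except in SvGRP without replicate 1 at 150 mM (adjusted p = 0.0053). CAT2 was called higher after quantile normalization, by 0.36 and 0.42 (adjusted p = 0.0066 and 0.0024), and under E1A scaling, by 0.48 and 0.36 (adjusted p = 0.0067 and 0.032), so whether it rose depends on the scaling.

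CAT3, the catalase linked to vascular tissue and ageing leaves, had levels of 6.33, 6.37 and 6.33 in the wild type at 0 mM and 6.13, 6.05 and 6.07 at 150 mM. In SvGRP they were 5.89, 5.90 and 5.73 at 0 mM and 5.83, 5.68 and 5.60 at 150 mM. The wild-type groups did not overlap and the SvGRP groups did. CAT3 fell by 0.26 ± 0.07 in the wild type (adjusted p = 0.0081), and the SvGRP difference of -0.14 ± 0.07 was not called (adjusted p = 0.099), except without replicate 3 at 0 mM (adjusted p = 0.036) or replicate 1 at 150 mM (adjusted p = 0.018). The direction turns with the scaling: quantile normalization gave 0.28 (adjusted p = 0.0021) and 0.27 (adjusted p = 0.0022), and E1A scaling gave 0.17 in the wild type, not called. The wild-type call was lost when slide entered the fit (-0.21, adjusted p = 0.092), and the mean of all CAT3 probes gave -0.10 (adjusted p = 0.45).

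CAT1, known from seeds and pollen and a neighbour of CAT3 in the RefSeq gene table, had levels of 4.28, 4.22 and 4.09 in the wild type at 0 mM and 4.19, 4.0 and 3.92 at 150 mM. In SvGRP they were 3.75, 3.72 and 3.66 at 0 mM and 3.81, 3.74 and 3.64 at 150 mM. The NaCl groups overlapped in each genotype, and neither difference was called (-0.16 ± 0.08, adjusted p = 0.0996, and 0.02 ± 0.08, adjusted p = 0.83). In the wild type it was called lower without replicate 1 at 150 mM (adjusted p = 0.021) and scaled to the array's median (-0.23, adjusted p = 0.039). Its other probes did not follow: of these, 1 differed by 0.10 and 0.20, and a dim probe, which was not above the 20th percentile on every array, by 1.16 and 1.85, so that the mean of the CAT1 probes was called higher in SvGRP (0.69, adjusted p = 0.0028).

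APX1, the cytosolic ascorbate peroxidase, had levels of 4.49, 4.41 and 4.21 in the wild type at 0 mM and 4.71, 4.57 and 4.55 at 150 mM. In SvGRP they were 4.38, 4.47 and 4.38 at 0 mM and 4.55, 4.77 and 4.82 at 150 mM. The NaCl groups did not overlap in either genotype. APX1 rose by 0.24 ± 0.09 in the wild type (adjusted p = 0.040) and by 0.30 ± 0.09 in SvGRP (adjusted p = 0.013), and neither was called with slide in the fit, where both were 0.34 (adjusted p = 0.071 and 0.065). Quantile normalization gave 0.53 and 0.55, and scaling to the median 0.18 in the wild type, not called (adjusted p = 0.12). The wild-type call was lost without any of 8 arrays, all but replicate 1 of the wild type at 0 mM and the 3 SvGRP arrays at 150 mM, with an adjusted p of 0.052 to 0.15. The mean of all APX1 probes gave 0.12 and 0.19, neither called (adjusted p = 0.34 and 0.13). Of its 6 further probes, 5 shared the sign in the wild type and 4 in SvGRP.

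Because NaCl groups also differ in what the scaling rests on, differences between genes on the same array were computed after the values were seen, and carry no test. CSD2 minus FSD1 was -2.47, -1.63 and -1.63 in the wild type at 0 mM and -4.57, -4.51 and -4.56 at 150 mM. It was -1.19, -1.17 and -0.94 in SvGRP at 0 mM and -3.25, -3.66 and -3.54 at 150 mM. The difference, which no scaling of whole arrays by a constant can move, shifted by -2.64 in the wild type and by -2.39 in SvGRP, with no overlap. It shows unequal change of the probes and not which of them changed.

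Over the 9 genes, groups at 0 and 150 mM did not overlap for 7 in the wild type, beside 69.5% of all genes, and for 6 in SvGRP, beside 74.7%. Salt was called in the same direction in both genotypes for 5 genes (CSD1, CSD2, FSD1, MSD1 and APX1), in the wild type alone for CSD3 and CAT3, and in neither for CAT1 and CAT2.

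The difference between the salt responses was itself tested and was called for 0 of the 9 genes by limma, beside 8.96% of all genes. At an unadjusted p under 0.05 there was 1, MSD1, whose response was larger in SvGRP by 0.16 ± 0.07 (95% interval 0.01 to 0.31, adjusted p = 0.16). The interval was -0.38 to 0.59 for CSD2, -0.40 to 0.50 for CSD1 and -0.41 to 0.13 for FSD1. The same limma test did not call a difference in response for CSD3 or CAT3, which were called in the wild type alone. Their adjusted p was 0.71 and 0.45, with intervals of -0.17 to 0.32 and -0.10 to 0.34.

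The comparison of SvGRP with the wild type asked how the transformant differed at each NaCl level. At 0 mM, 4 of the 9 genes were called, 2 higher (CSD2 and CAT2) and 2 lower (CAT1 and CAT3), where 21.2% of all genes were called (10.4% higher and 10.8% lower). At 150 mM these were called in the same direction, and FSD1 was called lower, making 5 where 28.9% of all genes were called (10.2% higher and 18.7% lower). Both counts of calls exceed those shares of 9 genes, and the excess was not tested. None differed by 2-fold, as 3.69% of all genes did at 0 mM and 4.51% at 150 mM. Groups did not overlap for 4 members at 0 mM, beside 50.3% of all genes, and for 6 at 150 mM, beside 40.2%. Limma called 0 of the 9 at either level once slide was in the fit, beside 0.911% and 0.892% of all genes. At an unadjusted p under 0.05 there was 1, CAT3 at 0 mM. In that fit, slides 1 and 2 are linked only by the wild type at 150 mM and slides 2 and 3 only by SvGRP at 0 mM.

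**Figure D3:**
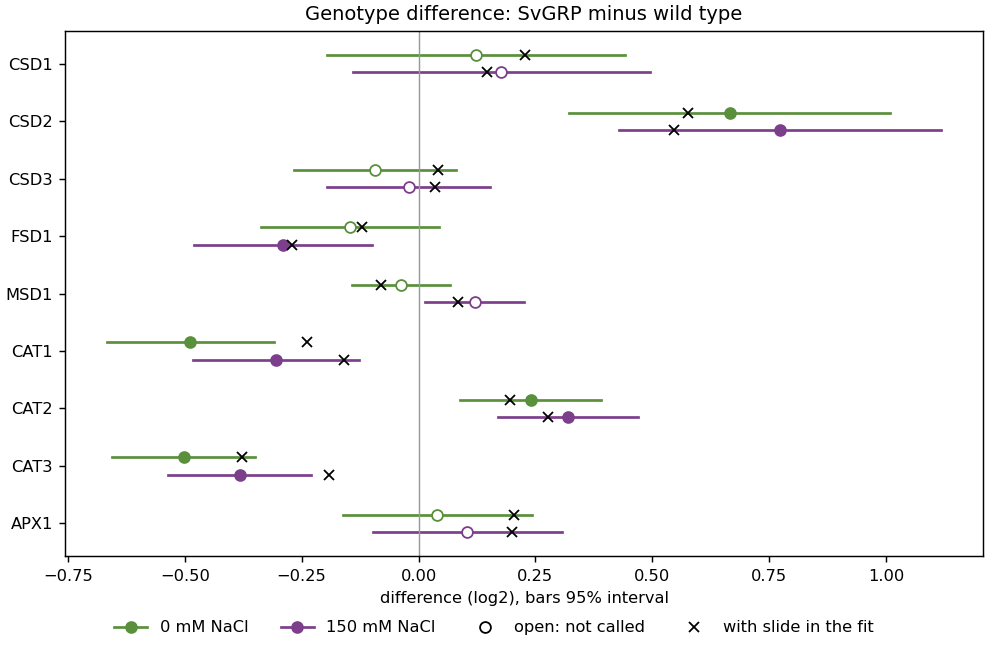
Difference between SvGRP and the wild type for each measured gene at 0 and 150 mM NaCl on the log2 scale; points are limma's differences, bars 95% intervals, open points are not called and crosses are values with slide in the fit. CSD2 and CAT2 lie above 0 and CAT1 and CAT3 below 0 at both levels, and the crosses of all 4 lie closer to 0 than the points.

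Among the catalases, the 3 genes did not move together. The CAT3 levels given above did not overlap between genotypes at either NaCl level, and it was lower in SvGRP, differing by -0.50 ± 0.07 at 0 mM (1.42-fold, adjusted p = 0.0014) and -0.38 ± 0.07 at 150 mM (1.30-fold, adjusted p = 0.0033). All 8 further CAT3 probes were lower at 0 mM, with differences of -0.51 to -0.20, and 7 of 8 at 150 mM. Neither call held with slide in the fit, at -0.38 (adjusted p = 0.21) and -0.19 (adjusted p = 0.50), or after E1A scaling, at -0.14 (adjusted p = 0.24) and -0.22 (adjusted p = 0.14). At 0 mM the mean of all CAT3 probes gave -0.32 (adjusted p = 0.060). The size at 0 mM went with probe brightness. The brightest probes, at wild-type levels of 6.34 and 5.30, gave -0.50 and -0.51, and those at 2.1 and below gave -0.25 to -0.20. At 150 mM this order was absent, with -0.38 and -0.59 on the brightest and -0.49 to 0.08 on the dimmer probes. The part of signal brightness in these differences was not tested.

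CAT1 was lower too, differing by -0.49 ± 0.08 at 0 mM (adjusted p = 0.0033) and -0.30 ± 0.08 at 150 mM (adjusted p = 0.019), again without overlap between genotypes. Slide in the fit gave -0.24 (adjusted p = 0.47) and -0.16 (adjusted p = 0.61), and E1A scaling gave -0.13 (adjusted p = 0.37) and -0.14 (adjusted p = 0.40). At 150 mM the call was also lost without replicate 1 of the wild type (adjusted p = 0.053), without SvGRP replicate 3 (adjusted p = 0.057), scaled to the median (-0.24, adjusted p = 0.054) and with only those groups fitted (adjusted p = 0.085). The CAT1 probes disagreed. A further probe was higher in SvGRP by 0.32 and 0.41, and the mean of all CAT1 probes gave -0.24 at 0 mM (adjusted p = 0.30) and 0.09 at 150 mM (adjusted p = 0.69), so CAT1 is uncertain.

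CAT2 was higher by 0.24 ± 0.07 at 0 mM (adjusted p = 0.032) and by 0.32 ± 0.07 at 150 mM (adjusted p = 0.0070). The genotypes did not overlap. CAT2 has a single probe, so no further probe could be set beside these differences. The call at 0 mM was lost without any of the 6 arrays at 0 mM (adjusted p = 0.054 to 0.10) and scaled to the median (0.23, adjusted p = 0.052), and that at 150 mM with only those groups fitted (adjusted p = 0.057). Neither held with slide in the fit, at 0.20 (adjusted p = 0.60) and 0.28 (adjusted p = 0.40).

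On the same array, CAT2 minus CAT3 was -1.66, -1.81 and -1.64 in the wild type at 0 mM and -1.46, -1.36 and -1.35 at 150 mM. It was -1.05, -1.0 and -0.83 in SvGRP at 0 mM and -0.97, -0.59 and -0.51 at 150 mM. All 6 SvGRP arrays lay above all 6 wild-type arrays, by a mean of 0.74 at 0 mM and 0.70 at 150 mM. This pair was also chosen after the values were seen and has no test. The genotypes shared no slide at either NaCl level, and the difference also varied with slide within a group. In the wild type at 150 mM it was -1.46 on slide 1 and -1.36 and -1.35 on slide 2. In SvGRP at 0 mM it was -1.05 and -1.0 on slide 2 and -0.83 on slide 3. The part of slide in this separation was not tested.

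CSD2 was higher in SvGRP by 0.67 ± 0.15 at 0 mM (1.59-fold, adjusted p = 0.015) and by 0.77 ± 0.15 at 150 mM (1.71-fold, adjusted p = 0.0054). The genotypes did not overlap at either level, and the other CSD2 probe gave 0.78 and 0.73. At 0 mM the call was lost without SvGRP replicate 3 (adjusted p = 0.056). Slide in the fit ended both calls, at 0.58 (adjusted p = 0.45) and 0.55 (adjusted p = 0.44). The order of the 4 group means was SvGRP at 0 mM, wild type at 0 mM, SvGRP at 150 mM and wild type at 150 mM, and each neighbour was separated from the next on every array.

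CSD1 was not called at either level, and its groups overlapped. SvGRP minus the wild type was 0.12 ± 0.14 at 0 mM (95% interval -0.20 to 0.44) and 0.18 ± 0.14 at 150 mM (-0.14 to 0.50). The other CSD1 probe gave 0.26 and 0.20. Under E1A scaling CSD1 was called higher at 0 mM (0.48, adjusted p = 0.0054) and not called at 150 mM (0.34, adjusted p = 0.051). FSD1 was lower in SvGRP at 150 mM, with a difference of -0.29 ± 0.09 (adjusted p = 0.030). That call was lost without any of the 6 arrays at 150 mM (adjusted p = 0.053 to 0.077), scaled to the median (-0.23, adjusted p = 0.085), under E1A scaling (-0.13, adjusted p = 0.53) and when slide was fitted (-0.27, adjusted p = 0.52).

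At 0 mM FSD1 differed by -0.15 ± 0.09 and was not called (adjusted p = 0.25), except without replicate 3 of the wild type (adjusted p = 0.048). MSD1 differed by -0.04 ± 0.05 at 0 mM, which turned to a called 0.32 under E1A scaling (adjusted p = 0.035), and by 0.12 ± 0.05 at 150 mM (adjusted p = 0.083), which was called without SvGRP replicate 1 (adjusted p = 0.036) and scaled to the median (0.18, adjusted p = 0.029). CSD3 and APX1 were not called at either level, save APX1 at 0 mM under E1A scaling (0.40, adjusted p = 0.033), with intervals of -0.27 to 0.08 and -0.20 to 0.15 for CSD3 and of -0.16 to 0.24 and -0.10 to 0.31 for APX1.

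CSD1 and CSD2 were the members whose group means spanned at least 1 log2 unit, and for each the 3 named genes with the smallest root mean square difference from it over the 12 arrays were sought, every gene centred on its own mean. For CSD1 they were scpl2 (0.12), RLP42 (0.14) and SYP112 (0.16), with salt differences between -1.22 and -1.43. For CSD2 they were KEA1 (0.17), PKS4 (0.26) and YUC2 (0.26), with salt differences between -1.69 and -2.10 and SvGRP differences between 0.46 and 0.89. That these differences resemble those of CSD1 and CSD2 follows from how the genes were chosen.

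**Figure D4:**
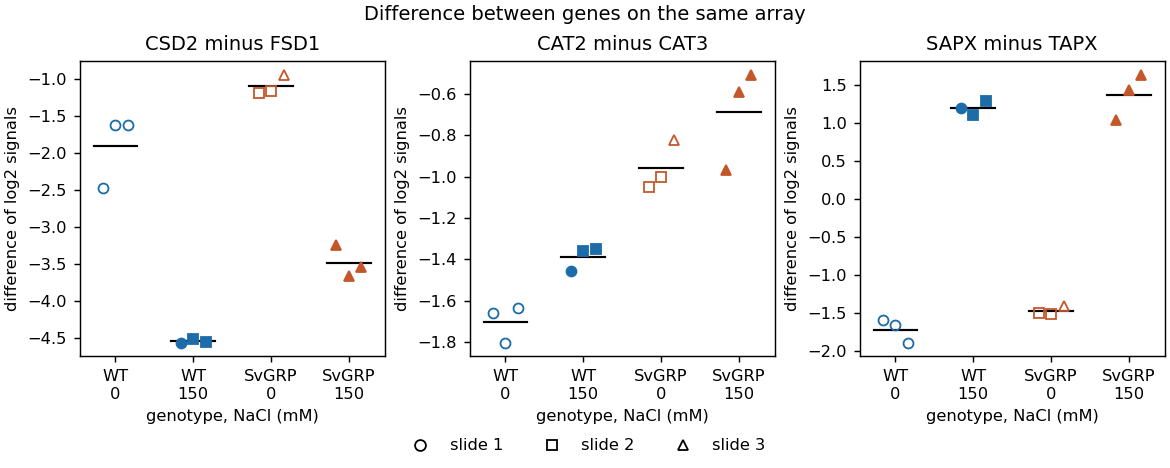
Difference of the log2 signals of 2 genes on the same array, for CSD2 minus FSD1, CAT2 minus CAT3 and SAPX minus TAPX, by genotype and NaCl level (mM); points are arrays, their shape gives the slide and bars are group means. CSD2 minus FSD1 is lower on all salt-treated arrays, CAT2 minus CAT3 is higher on all SvGRP arrays and SAPX minus TAPX is higher on all salt-treated arrays.

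Of the other superoxide dismutases and the chaperone CCS, all 4 were measured, and under salt 1 was called higher and 1 lower in each genotype. The salt counts of this and every list below stand beside 63.2% of all genes called in the wild type and 68.8% in SvGRP. With slide in the fit those shares were 45.7% and 54.1%. With most of all genes called, such counts say little about a list. CCS, which the CSD1 and CSD2 proteins need for their copper, was at 0.69, 1.29 and 1.07 in the wild type at 0 mM and -0.33, -0.23 and -0.36 at 150 mM. In SvGRP it was at 1.51, 1.51 and 1.62 at 0 mM and 0.17, -0.11 and 0.13 at 150 mM. All salt-treated arrays were below all others. CCS fell by 1.32 ± 0.13 in the wild type (adjusted p = 2.4e-05) and by 1.49 ± 0.13 in SvGRP (adjusted p = 7.4e-06), and both calls held with slide in the fit (-1.35 and -1.56). It was higher in SvGRP at 0 mM by 0.53 ± 0.13 (adjusted p = 0.021), a call lost without any of the 3 SvGRP arrays at 0 mM (adjusted p = 0.055 to 0.069) and when slide was fitted (0.46, adjusted p = 0.52).

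FSD3, a chloroplast iron enzyme, rose by 0.40 ± 0.08 and 0.53 ± 0.08 with salt (adjusted p = 0.0013 and 1.6e-04), and both calls held with slide in the fit. FSD2, its chloroplast partner, was not called for salt (0.03 and -0.11). It was lower in SvGRP, with differences of -0.41 ± 0.07 at 0 mM and -0.54 ± 0.07 at 150 mM (adjusted p = 0.0050 and 8.1e-04), calls that slide in the fit ended, and at 0 mM was not called under E1A scaling (-0.05, adjusted p = 0.72). MSD2, a further manganese enzyme gene, was called in no comparison.

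Of the 6 other ascorbate peroxidase genes, all were measured. Under salt, 1 was called higher and 4 lower in the wild type, and 1 higher and 5 lower in SvGRP, with list medians of -0.28 and -0.47. With slide in the fit, 1 was higher and 3 lower in the wild type and 1 higher and 4 lower in SvGRP. None of the 6 was called between genotypes, where 21.2% of all genes were at 0 mM and 28.9% at 150 mM.

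The chloroplast ascorbate peroxidases moved in opposite directions. TAPX, the thylakoid form, was at 2.58, 2.65 and 2.67 in the wild type at 0 mM and 0.78, 0.79 and 0.83 at 150 mM, and at 2.50, 2.55 and 2.52 in SvGRP at 0 mM and 0.89, 0.70 and 0.55 at 150 mM. SAPX, the stromal form, which also reaches mitochondria, was at 0.99, 0.99 and 0.78 and at 1.98, 1.91 and 2.12 in the wild type, and at 1.01, 1.04 and 1.12 and at 1.93, 2.15 and 2.20 in SvGRP. No salt-treated array overlapped the arrays at 0 mM for either gene. TAPX fell by 1.83 ± 0.07 and 1.81 ± 0.07 (adjusted p = 3.3e-07 and 1.5e-07), SAPX rose by 1.08 ± 0.09 and 1.03 ± 0.09 (adjusted p = 8.3e-06 and 6.1e-06), and all 4 calls held with slide in the fit. Within an array, SAPX minus TAPX shifted by 2.91 in the wild type and 2.85 in SvGRP. APX4, a thylakoid lumen protein of this family, fell by 0.93 ± 0.13 and 1.00 ± 0.13 (adjusted p = 1.5e-04 and 6.7e-05).

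Among the 10 genes that regenerate ascorbate and glutathione, 4 were called higher and 3 lower under salt in the wild type, and 3 higher and 5 lower in SvGRP, with list medians of 0.01 and -0.01. DHAR1, a cytosolic dehydroascorbate reductase, rose by 0.95 ± 0.09 and 0.99 ± 0.09 (adjusted p = 2.1e-05 and 1.0e-05). GR1, the cytosolic glutathione reductase, rose by 0.70 ± 0.11 and 0.86 ± 0.11 (adjusted p = 4.4e-04 and 8.7e-05). DHAR3, the chloroplast dehydroascorbate reductase, fell by 0.57 ± 0.07 and 0.68 ± 0.07 (adjusted p = 5.9e-05 and 1.3e-05), although the wild-type call was lost under E1A scaling (-0.14, adjusted p = 0.21). All 6 calls on these 3 genes held with slide in the fit.

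**Figure D5:**
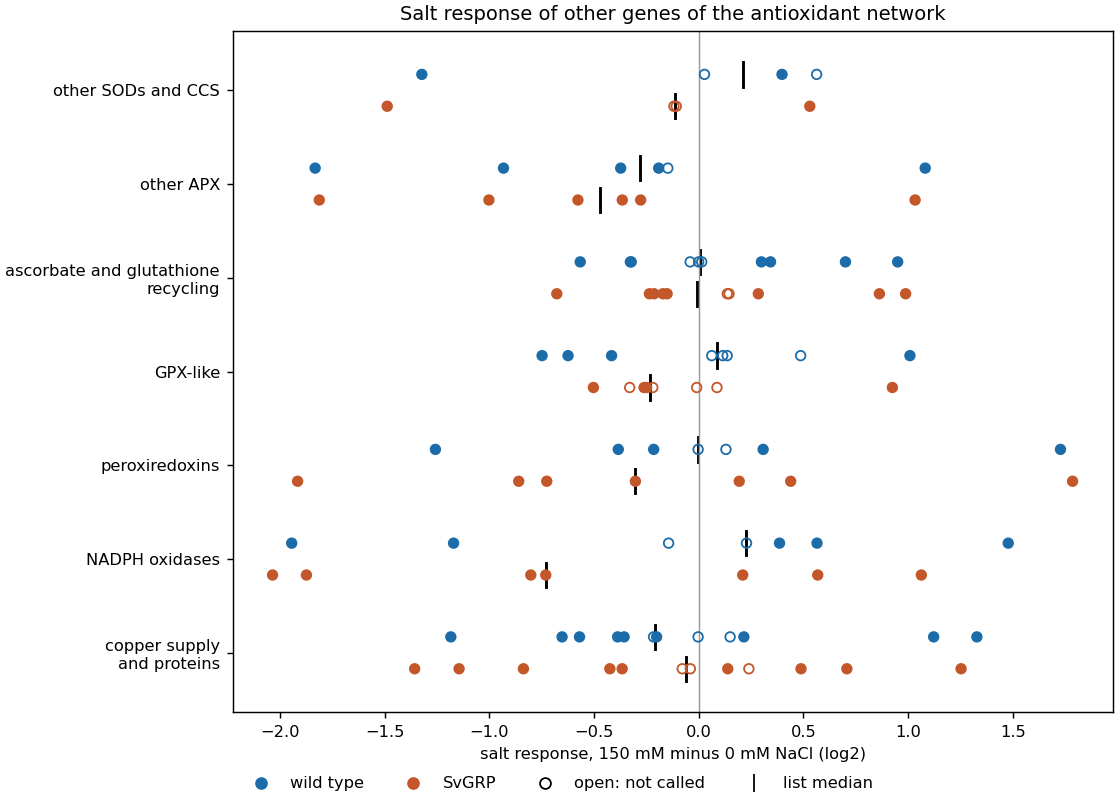
Salt response of the other antioxidant and copper genes by list, 150 mM minus 0 mM NaCl on the log2 scale, in the wild type and in SvGRP; each point is a gene, open points are not called and the bar is the list median. Every list holds called genes on both sides of 0 in both genotypes.

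The glutathione peroxidase-like genes and peroxiredoxins, which reduce peroxides with thioredoxin or related thiols, were also split. Of 8 glutathione peroxidase-like genes, 1 was called higher and 3 lower under salt in each genotype. GPX7, a chloroplast member, rose by 1.01 ± 0.18 in the wild type and 0.92 ± 0.18 in SvGRP. It was also higher in SvGRP by 1.06 ± 0.18 at 0 mM and 0.97 ± 0.18 at 150 mM, and those genotype calls were lost when slide was fitted (adjusted p = 0.26 and 0.26). Of 9 peroxiredoxins 7 were measured, of which 2 were called higher and 3 lower in the wild type and 3 higher and 4 lower in SvGRP. PER1, a seed peroxiredoxin, rose by 1.73 ± 0.38 and 1.79 ± 0.38 (adjusted p = 0.0026 and 0.0018), the latter a call lost when slide was fitted (1.43, adjusted p = 0.059), and PRXIIC, a cytosolic form, fell by 1.26 ± 0.28 and 1.92 ± 0.28 (adjusted p = 0.0030 and 1.7e-04).

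Of 10 NADPH oxidase genes, whose products make superoxide outside the cell, 7 were measured. Under salt 3 were called higher in each genotype, and 2 were lower in the wild type and 4 in SvGRP. RBOHD, the best known stress-signalling member, rose by 0.56 ± 0.10 and 0.57 ± 0.10 (adjusted p = 6.6e-04 and 5.1e-04). RBOHE rose by 1.48 ± 0.17 and 1.06 ± 0.17, and RBOHB fell by 1.94 ± 0.21 and 2.03 ± 0.21, all called with slide in the fit as well. RBOHG fell by 1.17 ± 0.14 and 1.87 ± 0.14 (adjusted p = 7.8e-05 and 2.8e-06), and these calls also held. Of 5 glycolate and hydroxy acid oxidase genes, which feed hydrogen peroxide to peroxisomal catalase, none has a probe named for it here.

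In the list of copper supply and copper protein genes 12 of 13 were measured. Under salt 3 were called higher and 6 lower in the wild type and 4 higher and 5 lower in SvGRP, with list medians of -0.21 and -0.06. SPL7, the factor that switches on copper-deficiency genes, rose by 0.22 ± 0.05 and 0.14 ± 0.05 (adjusted p = 0.0055 and 0.040), neither called with slide in the fit. Among the genes it is known to activate, those given here split. YSL2, a metal chelate transporter gene, rose by 1.33 ± 0.11 and 1.25 ± 0.11, and FRO4, a copper-reducing reductase gene, by 1.12 ± 0.13 and 0.71 ± 0.13. COPT1 fell by 1.18 ± 0.07 and 1.14 ± 0.07 and COPT2 by 0.36 ± 0.09 and 0.84 ± 0.09, both copper uptake transporters. The calls on these 4 transport and reductase genes held with slide in the fit but for COPT2 in the wild type (adjusted p = 0.073). ZIP2, a metal transporter gene of the list, was also called lower, with differences of -0.65 in the wild type and -1.36 in SvGRP. Under E1A scaling the wild-type call on ZIP2 was lost (-0.22, adjusted p = 0.080). COX5B-1, a mitochondrial subunit whose transcript is a further miR398 target, fell by 0.20 ± 0.07 in the wild type (adjusted p = 0.022), not called with slide in the fit, and differed by -0.08 ± 0.07 in SvGRP (adjusted p = 0.31).

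Between genotypes, 1 copper gene was called higher and 4 lower in SvGRP at 0 mM, and 2 higher and 4 lower at 150 mM. Of all genes 21.2% and 28.9% were called. With slide in the fit 0 copper genes were called at either level, beside 0.911% and 0.892% of all genes. FRO4 was lower, with differences of -1.09 ± 0.13 and -1.51 ± 0.13 (adjusted p = 5.8e-04 and 7.0e-05; -0.87 and -1.29 with slide in the fit). FRO5, a related reductase gene, was above the 20th percentile on no SvGRP array and on 2 of 3 wild-type arrays at 0 mM. It passed the filter only through the wild type at 150 mM. With dim SvGRP signals raised to that percentile, it was at least 1.90-fold lower in SvGRP at 0 mM, a bound without a test. Limma's difference of -2.77 (adjusted p = 0.033) rests on the dim signals as they stand. That call was lost when slide was fitted (adjusted p = 0.45) and without any of 5 single arrays (adjusted p = 0.059 to 0.11).

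The class A heat shock factors include HSFA2, a factor known to activate APX2. Of 9, 8 were measured, and under salt 4 were called higher and 1 lower in the wild type and 5 higher and 0 lower in SvGRP. HSFA2 was at -4.28, -3.96 and -4.03 in the wild type at 0 mM and at 0.11, 1.02 and 0.30 at 150 mM, and at -5.37, -5.01 and -5.44 in SvGRP at 0 mM and at 0.73, 0.51 and 1.07 at 150 mM. It rose by 4.57 ± 0.23 and 6.04 ± 0.23 (adjusted p = 8.2e-07 and 1.1e-07). HSFA7B, a related factor, rose by 2.21 ± 0.20 and 3.25 ± 0.20. All 4 calls held with slide in the fit.

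In Arabidopsis, CAT2 transcripts are known to peak in the morning and CAT3 transcripts in the evening, so clock genes were listed beside the genotype difference of the catalases. Of the 10 clock genes, 3 were called higher and 5 lower in SvGRP at 0 mM, and 4 higher and 4 lower at 150 mM, with medians of -0.27 and -0.27. The shares of all genes called were 21.2% at 0 mM and 28.9% at 150 mM, and 0.911% and 0.892% with slide in the fit. The evening genes ELF4, LUX and TOC1 were lower, with differences of -2.12 ± 0.09, -1.62 ± 0.11 and -1.21 ± 0.10 at 0 mM. At 150 mM the differences were -2.04, -1.72 and -1.28. GI, a further evening gene of the list, differed far less. Its mean level was 0.22 in the wild type and 0.10 in SvGRP at 0 mM, and -0.53 and -0.65 at 150 mM. The morning gene CCA1 was higher by 0.64 ± 0.07 and 0.94 ± 0.07, and PRR9 by 0.57 ± 0.06 and 0.83 ± 0.06. Once slide was in the fit, 2 clock genes were called lower at 0 mM (ELF4 -2.30 and LUX -1.59), and 2 higher and 3 lower at 150 mM. The part of clock phase in the catalase differences was not tested.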

How the data were processed

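RNA labelled with Cy3 was hybridised to one-colour arrays, and the submitters' processing notes name Agilent Feature Extraction as the software, with no version. The authors' deposited array files give each probe's processed intensity on a linear scale, with no flags, mean or background signals. Their deposited series table holds log2 values, and these matched the log2 intensities used here, once each probe was centred on its median of the 12 arrays, within 2.1e-04, with column medians of -0.07 to 0.04, and served as an alternative.

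Of 43603 probes that are not controls, 34344 had 1 gene in the probe table and 9259 are not listed in it. Probes were named through RefSeq's gene table (TAIR10.1, names and neighbours only): an accession matched for 32283, a locus tag for 1318 and a symbol for 697, while 46 kept the platform's name. A probe was kept if, in 1 group or more, every array had it above that array's 20th percentile (35454 probes), and each gene was read from its brightest probe by mean. This left 26794 genes or unnamed probes, 20917 of them named.

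Log2 intensity, less log2 of the 75th percentile of its array, was fitted with limma 3.58.1 in R 4.3.3, with a mean per group over all 12 arrays, 8 residual and 1.74 prior degrees of freedom, and Benjamini-Hochberg adjustment over all 26794. Slide as a fixed term left 6 residual degrees of freedom. The code was tested on simulated data. The labels do not say that replicates were grown apart, so the p-values rest on a spread that may be technical. The rule for named genes takes all members and, per list and comparison, up to 3 called genes in each direction with the largest differences, whose groups do not overlap. The text gives only some of the list genes so taken, picked for their roles or size after their values were seen, and the rest as counts. COX5B-1 and FSD2 under salt, COPT2 under salt in the wild type and SPL7 under salt in SvGRP fall outside the rule. So do MSD2 and, between genotypes, GI, and all of these were added in the same way. The members and lists were chosen with earlier results of these data known. Alternatives were other scalings, filters, variance models and probe rules, a block for slide or for replicate number, each array left out in turn, fitting only the groups compared and a 2-fold threshold.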

Additional observations from a re-analysis of the deposited data

Results flagged for a closer look

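No member of the family had a salt response that was called different between the genotypes. Among all the listed genes around it, 6 were called by limma's interaction test, where 8.96% of all genes tested were called. The numbers of listed genes measured are given list by list above. Beside that share the count says little about these lists. Each difference is given as the SvGRP response minus the wild-type response on the log2 scale. HSFA2 differed by 1.47 ± 0.33 (adjusted p = 0.028) and HSFA7B by 1.04 ± 0.28 (adjusted p = 0.049). GPX1, a chloroplast glutathione peroxidase-like gene, differed by 0.49 ± 0.08 (adjusted p = 0.012). RBOHA differed by -0.59 ± 0.13 (adjusted p = 0.025) and RBOHC, the root hair NADPH oxidase, by -1.03 ± 0.26 (adjusted p = 0.042). ZIP2, a metal transporter gene, differed by -0.70 ± 0.17 (adjusted p = 0.035). None of the 6 was called with slide in the fit (2.01, 1.64, 0.55, -0.39, -0.68 and -0.66 in the same order, adjusted p 0.091 to 0.49). All but GPX1 lost the call without single arrays, with an adjusted p of up to 0.071 for HSFA2, 0.11 for HSFA7B, 0.068 for RBOHA, 0.0998 for RBOHC and 0.086 for ZIP2. E1A scaling ended the calls on GPX1 (0.29, adjusted p = 0.21) and HSFA7B (0.84, adjusted p = 0.12), and quantile normalization that on RBOHA (-0.48, adjusted p = 0.069). Testing without the filter on dim probes ended those on HSFA7B, RBOHC and ZIP2 (adjusted p = 0.069, 0.059 and 0.051). Groups of 3 arrays were not searched for outlying arrays.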

How the results depend on the processing

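The calls on CSD1, CSD2 and FSD1 under salt held in both genotypes in all alternatives run, except that FSD1 did not pass the 2-fold threshold. Across alternatives the CSD2 salt difference ran from -2.20 to -1.59 in the wild type and from -2.07 to -1.68 in SvGRP. With 2-fold added, 2 members were called under salt in each genotype and 0 between genotypes at either level, and over all genes 3985, 5367, 989, 1208 and 880 for salt in the wild type, salt in SvGRP, SvGRP at 0 mM, SvGRP at 150 mM and the interaction. Slide as a fixed block left 3 members called for salt in the wild type and 0 between genotypes at 0 and 150 mM, and 244, 239 and 138 genes for the genotypes and the interaction, while slide as a random block called 10264, 11979 and 7384. Fitting only the groups compared called 4 members for salt in the wild type and 3 between genotypes at 150 mM (3757 genes), and the mean of all probes 2 at 0 mM. E1A scaling moved the median of all genes to 0.46 and 0.16 for salt in the wild type and SvGRP, 0.39 and 0.14 between genotypes at 0 and 150 mM, and -0.24 for the interaction; under it 16598 genes were called at 0 mM, and 2 members at 150 mM.

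Without 1 array each, members called ran from 5 to 7 for salt in either genotype, 2 to 4 at 0 mM, 3 to 5 at 150 mM and 0 to 0 for the interaction. All genes called ran from 15469 to 17520 and 16757 to 18624 for salt, 3125 to 6825 and 5179 to 8416 between genotypes, and 851 to 3655 for the interaction. Of all calls, 52.3%, 45.1%, 49.2%, 35.4% and 28.1% were higher in the 5 comparisons, beside 86.0%, 64.7%, 95.7%, 65.6% and 6.40% under E1A scaling. The last pair was 50.1% and 44.6% after quantile normalization and 53.5% and 46.2% scaled to the median.

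Directions reversed under E1A scaling for salt in the wild type in CSD3 (0.17), CAT3 (0.17), APX3 (0.055), MDAR4 (0.11), GR2 (0.10), GPX5 (0.012), 2CPA (0.044), HSFA1B (0.13) and PRR5 (0.022), for salt in SvGRP in MDAR6 (0.015), and for SvGRP at 0 mM in MSD1 (0.32), FSD3 (0.066), GPX6 (0.059), PRXIIB (0.024) and PETE2 (0.048). Quantile normalization reversed CAT3 under salt (0.28 and 0.27) and PETE2 in the wild type (0.024), and the mean of all probes reversed CAT1 at 150 mM (0.089). The causes were not tested. Replicate numbers did not pair the arrays (same-number deviations correlated at -0.18 to 0.02). The fit with the replicate block called 1215 genes for the interaction in place of 2402 and, among the members, lost MSD1 (adjusted p = 0.052) and APX1 (adjusted p = 0.067) for salt in the wild type and gained CAT1 (-0.16, adjusted p = 0.027). The planned normexp correction was not run, since the files hold no mean or background signals. Signals over background are not given in the files, so dim probes are judged by the percentile alone.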
